A study of Mus musculus with 6 samples.

Results

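The genes described here encode the nuclear subunits of oxidative phosphorylation, the mitochondrial electron transport chain and the ATP synthase. They were picked by symbol: names that start with Nduf, Uqcr, Atp5 or Cox followed by 4, 5, 6, 7 or 8, together with Sdha, Sdhb, Sdhc, Sdhd, Cyc1 and Cycs. Of 14744 genes, 93 carried such a name, and all 93 had a normalized read count of at least 10 in at least 3 of 6 libraries. By their known roles, 80 are subunits or cytochrome c, 9 are assembly factors and 4 are named as pseudogenes. Messenger RNA was sequenced from T follicular helper (Tfh) cells, which give germinal center B cells the signals for antibody selection, sorted as CD4+B220-CD44+PD-1+CXCR5+ from mesenteric lymph nodes of mice labelled C57BL/6, and C57BL/6J in the study's methods. One group of 3 libraries was labelled WT, which in the study are Cd4-Cre littermates, and the other 3 were labelled Bach2-cKO, from Bach2 fl/fl mice carrying Cd4-Cre. Cd4-Cre deletes in cells that have passed through Cd4 expression, which includes other T cell lineages, so the deletion was not restricted to Tfh cells. Each library was made from 10000 to 30000 cells, from mice 2 to 3 months old.

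Electrons from NADH enter at complex I and electrons from succinate at complex II, pass by ubiquinone to complex III, and reach oxygen through cytochrome c and complex IV. The proton gradient built by complexes I, III and IV drives complex V, the ATP synthase. Most subunits are encoded in the nucleus, while some core subunits of complexes I, III, IV and V are encoded in mitochondrial DNA and were not analysed here. Activated T cells use both glycolysis and respiration.

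The values are gene counts divided by a size factor for each library, so that libraries can be compared. Their sums ranged from 7361229 to 8135325, and the smallest step between values gives 5045131 to 10987752 reads per library. In WT replicate 1, 11648 genes had a value above 0, against 13111 to 13567 in the other 5 libraries. Fold changes are given on the log2(normalized count + 1) scale as the libraries labelled Bach2-cKO over WT, with the standard error (SE), and were tested with limma across 11296 genes.

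Counts of Bach2, the deleted gene, were not lower in the libraries labelled Bach2-cKO. Its normalized counts were 233, 222 and 105 in WT and 399, 763 and 591 in the libraries labelled Bach2-cKO. Every library labelled Bach2-cKO lay above every WT library, and the log2 fold change was 1.68 (SE 0.37, limma adjusted p = 0.141), or 1.09 once a trend in transcript length and GC content was removed. A count over the whole gene includes exons outside the deleted part and does not show whether the deletion took place. Directions below are therefore those of the labels.

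In limma 0 of 11296 genes (0%) passed the limits used in the study, more than 2-fold with an adjusted p below 0.01, and the lowest adjusted p of any gene was 0.141. The same fit gave 1144 genes higher and 1157 lower in the libraries labelled Bach2-cKO at an unadjusted p under 0.05, while DESeq2 on the whole reads of 5 libraries gave 33 higher and 57 lower past the same limits, and edgeR on those reads gave 0 genes at an adjusted p under 0.05. Unadjusted, edgeR gave 9.55% of genes higher and 8.77% lower, and DESeq2 9.66% and 9.45%, with 1 member higher and 7 lower in each, and Ndufa2, the member higher in limma, was not among them. Both tools were run without WT replicate 1. On the same 5 libraries limma gave 1 member higher and 7 lower unadjusted, and 0 genes past the study's limits. The source of differences between these tools and limma was not tested. Among the 93 oxidative phosphorylation genes, 1 was higher and 11 were lower at an unadjusted p under 0.05, or 1.08% and 11.8%, beside 10.1% and 10.2% of all genes tested. The share that was lower was thus near the background, and the share that was higher was below it. The groups did not overlap for 2 members that were higher and 14 that were lower, beside 14.6% and 12.2% of all genes. The median log2 fold change of the members was 0.04, beside 0.08 for all genes tested, and their values ranged from -1.23 to 1.95. The member median was 0.021 after TMM rescaling, 0.16 after quantile normalization, 0.13 once the trend in length and GC was removed and 0.0049 in edgeR. In DESeq2 it was on the other side of 0, at -0.021, as it was without Bach2-cKO replicate 1, at -0.013, and without replicate 2, at -0.0096. It was 0.015, 0.024 and 0.10 without WT replicates 1, 2 and 3 and 0.13 without Bach2-cKO replicate 3. With 3 libraries against 3, a two-sided exact permutation test of a single value cannot give a p below 0.1.

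The split of calls depended on the scaling. After quantile normalization 11 members were higher and 9 lower (10.6% and 10.8% of all genes), and after a trend in transcript length and GC content was taken off each library 13 were higher and 8 lower (5.45% and 9.08% of 10613 genes). Over those 10613 genes the median was 0.07 before that step and -0.03 after it, while that of the members went from 0.04 to 0.13. The split also depended on single libraries. Without Bach2-cKO replicate 3, 22 members were higher and 19 lower (13.1% and 14% of all genes). Without Bach2-cKO replicate 1 the counts were 0 and 3 (4.14% and 5.36% of all genes), without Bach2-cKO replicate 2 they were 0 and 7 (4.74% and 5.92%), and without WT replicate 1 they were 1 and 7 (9.79% and 9.43%). Leaving out WT replicate 2 gave 1 and 13 (12.1% and 10.2%), and leaving out WT replicate 3 gave 1 and 9 (9.68% and 7%).

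Complex I is the NADH dehydrogenase, and the log2 fold changes of its 36 subunits had a median of 0.07, against 0.021, 0.040 and 0.13 without Bach2-cKO replicates 1, 2 and 3 and 0.049 without WT replicate 2. The 7 core subunits, which carry the flavin and the iron-sulfur clusters, had a median of -0.30, and the 29 accessory subunits, which surround that core, had a median of 0.09, against 0.23 without Bach2-cKO replicate 3 and 0.15 without WT replicate 3. At an unadjusted p under 0.05, 1 complex I subunit was higher, Ndufa2, and 2 were lower, Ndufs8 and Ndufa9, or 2.78% and 5.56% of the 36, below the shares of all genes. The higher share was above that of all genes under other scalings, with 6 higher and 1 lower after quantile normalization (16.7% and 2.78%) and 7 higher and 2 lower once the trend in length and GC was removed (19.4% and 5.56%). The median of the 36 was then 0.21 in each, beside 0.043 in DESeq2, and that of the accessory subunits 0.27 and 0.23. Neither Ndufa2 nor Ndufs8 had a p under 0.05 in edgeR or DESeq2. The limma counts were 0 and 1 without Bach2-cKO replicate 1 (4.14% and 5.36% of all genes) or 2 (4.74% and 5.92%). They were 10 and 5 without replicate 3 (13.1% and 14%). They were 1 and 1 without WT replicate 1 (9.79% and 9.43%) or 3 (9.68% and 7%). Ndufa9, an accessory subunit that sits near the quinone site, had counts of 1852, 1481 and 1472 in WT and 613, 709 and 1110 in the libraries labelled Bach2-cKO. The groups did not overlap, and replicate 3 of the latter was the one closest to WT. The log2 fold change was -1.02 (SE 0.25, limma adjusted p = 0.141). Ndufv1, which binds NADH and the flavin, had counts of 966, 774 and 659 in WT and 353, 420 and 959 in the other group. Here the groups overlapped through Bach2-cKO replicate 3, and the log2 fold change was -0.60 (SE 0.36, limma adjusted p = 0.349). Without that library it was -1.03 at a limma adjusted p of 0.0532, and it was -0.31 without Bach2-cKO replicate 1, -0.32 in edgeR and -0.34 in DESeq2.

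Ndufa2, a small accessory subunit, had counts of 3138, 3862 and 4245 in WT and 7038, 6203 and 4329 in the libraries labelled Bach2-cKO. The groups were separate, but replicate 3 exceeded the highest WT library by a small margin. Its log2 fold change was 0.63 (SE 0.23, limma adjusted p = 0.183). Ndufa1 and Ndufa3 had the highest mean counts of complex I. Ndufa1 was at 4065, 5786 and 6151 in WT and at 9010, 7463 and 5315 in the libraries labelled Bach2-cKO. Ndufa3 was at 4644, 5764 and 6445 and at 8318, 7879 and 4681. For both genes, replicate 3 of the labelled Bach2-cKO group lay within the WT range. Exons of Ndufa9, Ndufa2 and Ndufa3 overlap those of other genes on the opposite strand, and the counting was not stated to use strand, so these counts are uncertain.

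Complex II, succinate dehydrogenase, also works in the TCA cycle and has 4 subunits, all nuclear. Its median log2 fold change was -0.63, and 2 of 4 were lower at an unadjusted p under 0.05, beside 10.2% of all genes. The count was 0 without Bach2-cKO replicate 1 (5.36% of all genes), 1 without replicate 2 (5.92%) and 1, Sdhc, once the trend in length and GC was removed (9.08%). Sdhd, a membrane anchor, had counts of 3583, 2034 and 2457 in WT and 1094, 1500 and 1924 in the libraries labelled Bach2-cKO. Sdhc, the other anchor, was at 1807, 1556 and 1823 and at 869, 899 and 1494. For neither anchor did the groups overlap, with log2 fold changes of -0.83 (SE 0.27, limma adjusted p = 0.159) and -0.71 (SE 0.24, limma adjusted p = 0.168). Sdhb, the iron-sulfur subunit, was at 5842, 4758 and 5516 in WT and at 2625, 3441 and 5416 in the other group, where replicate 3 lay within the WT range. Sdha, the flavoprotein, had counts of 1931, 1134 and 1262 in WT and 1938, 1376 and 1603 in the libraries labelled Bach2-cKO. These groups overlapped through WT replicate 1.

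Complex III passes electrons from ubiquinol to cytochrome c, and the median log2 fold change of its 9 subunits was 0.11. It was 0.025, 0.042 and 0.26 without Bach2-cKO replicates 1, 2 and 3, and 0.039 and 0.073 without WT replicates 1 and 2. At an unadjusted p under 0.05, 2 were lower, Cyc1 and Uqcrc2, beside 10.2% of all genes, against 1 without Bach2-cKO replicate 1 (5.36%). Without Bach2-cKO replicate 3, 3 were lower and 3 higher (14% and 13.1% of all genes). In edgeR and DESeq2 Uqcrc2 was the 1 lower (8.77% and 9.45%). After quantile normalization Uqcrh and Uqcrq were higher (10.6%) and the same 2 as before lower (10.8%). Once the trend in length and GC was removed, Uqcrh, Uqcrq and Uqcrb were higher (5.45%) and Cyc1, Uqcrc2 and Uqcrc1 lower (9.08%). The median was 0.26 after quantile normalization, 0.077 with the trend removed, 0.047 in edgeR and 0.022 in DESeq2. Uqcrc2, which faces the matrix and carries no redox center, had counts of 1956, 1494 and 1756 in WT and 526, 626 and 1211 in the libraries labelled Bach2-cKO. All 3 of the latter lay below WT, at a mean of 788 ± 370 (SD, n = 3) beside 1735 ± 232 (SD, n = 3). Its log2 fold change was -1.23 (SE 0.30, limma adjusted p = 0.141). Cyc1, which encodes cytochrome c1, was at 2722, 1522 and 1727 in WT and at 603, 848 and 1648 in the other group. The groups overlapped through replicate 3, and the log2 fold change was -1.03 (SE 0.36, limma adjusted p = 0.172), beside -0.65 in edgeR and -0.68 in DESeq2. Uqcrh, the hinge protein that aids docking of cytochrome c, had counts of 4293, 4729 and 5368 in WT and 8463, 7302 and 4941 in the libraries labelled Bach2-cKO. Replicates 1 and 2 of that group were above WT and replicate 3 was within its range. Exons of Uqcrc2 overlap those of Pdzd9 on the other strand, which leaves its count uncertain. Uqcr10, a small accessory subunit, was at 5061, 4837 and 5401 in WT and at 6182, 6038 and 4451 in the other group. There replicate 3 lay below WT and replicates 1 and 2 above it.

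Cycs, the soluble carrier between complexes III and IV, was at 4465, 3241 and 3489 in WT and at 2408, 2836 and 2972 in the libraries labelled Bach2-cKO. The groups were separate, and the log2 fold change was -0.44 (SE 0.20, limma adjusted p = 0.246), or -0.26 after quantile normalization.

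Of the 15 nuclear subunits of complex IV, cytochrome c oxidase, 0 had an unadjusted p under 0.05 in limma with all libraries as deposited, edgeR or DESeq2. In other limma fits 3 were higher without Bach2-cKO replicate 3, 2 after quantile normalization, Cox6c and Cox4i1, and 2 once the trend in length and GC was removed, Cox6c and Cox7b, beside 13.1%, 10.6% and 5.45% of all genes. Their median log2 fold change was 0.15, against 0.058, 0.045 and 0.30 without Bach2-cKO replicates 1, 2 and 3 and 0.084 and 0.073 without WT replicates 1 and 2. It was 0.23 after quantile normalization, 0.33 with the trend removed, 0.0998 in edgeR and 0.074 in DESeq2. In limma 13 of 15 were above 0, beside 6185 of all 11296 genes tested. Of the 13, 7 were above 0 in every alternative that gave them a value. Cox6c had counts of 6918, 7024 and 8324 in WT and 13198, 12481 and 7382 in the libraries labelled Bach2-cKO. Replicates 1 and 2 were above every WT library and replicate 3 lay among them, giving a log2 fold change of 0.53 (SE 0.25, limma adjusted p = 0.257) that was 0.80 without replicate 3. Cox8a, a small subunit in the membrane, was at 8628, 8183 and 10286 in WT and at 10167, 10275 and 7458 in the libraries labelled Bach2-cKO. The groups overlapped, and the sign of its log2 fold change turned without WT replicate 2 or Bach2-cKO replicate 1 or 2, in DESeq2, and once the trend in length and GC was removed. Exons of Cox6c overlap those of Vps13b on the other strand. Paralogs of this complex differed in level. Per kilobase of transcript, the ubiquitous Cox4i1 had a mean normalized count of 9171 in WT and Cox4i2, known for lung and hypoxia, had 41.4. The scale was similar for Cox6b1 at 11866 and Cox6b2, known from testis, at 34.7, a mean that includes a library listed at 0. Cox7a2 stood at 8107, Cox7a2l, which takes part in supercomplexes, at 1350 and the heart and muscle form Cox7a1 at 75.9. Cox6b2 had counts of 0, 16.8 and 23.9 in WT and 42.9, 30.8 and 17.4 in the libraries labelled Bach2-cKO. These are low values and the groups overlapped, and the log2 fold change of 1.95 (SE 1.24, limma adjusted p = 0.375) was 0.49 without WT replicate 1, the library at 0, 0.53 in DESeq2, 0.56 in edgeR, 1.11 after quantile normalization and 1.2 with a pseudocount of 5.

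**Figure D1:**
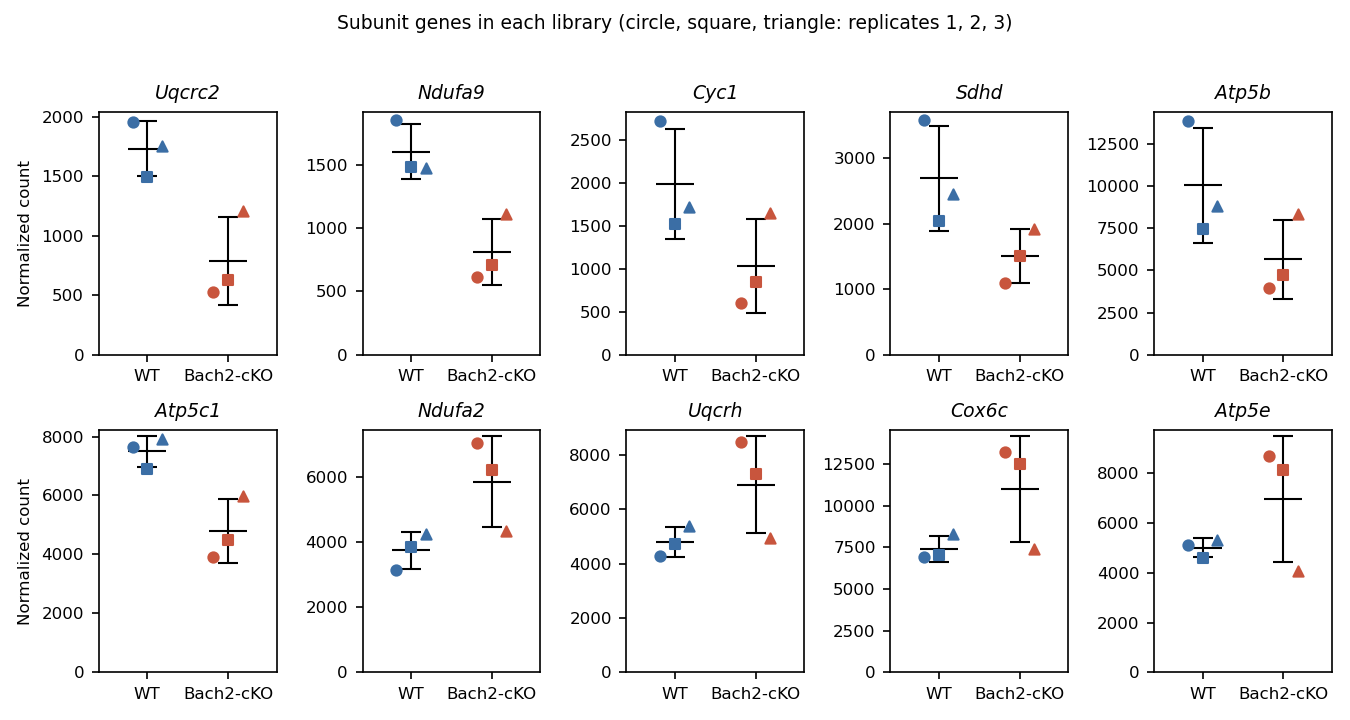
Normalized counts of 10 subunit genes in each library, with the mean (line) and SD (bars) of 3 libraries per group and a marker for each replicate number. Uqcrc2, Ndufa9, Sdhd and Atp5c1 are lower in every library labelled Bach2-cKO, and the triangle of that group, replicate 3, is the one nearest to WT.

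Complex V couples proton flow through its membrane part, Fo, to ATP synthesis in F1. The log2 fold changes of 5 F1 subunits had a median of -0.58, and those of the other 10 had one of -0.10. Without WT replicates 1, 2 and 3 the latter was -0.034, -0.18 and -0.013, and without Bach2-cKO replicate 3 it was -0.025, and in edgeR -0.045. It turned to 0.07 after quantile normalization and to 0.08 with the trend in length and GC removed. The F1 median was -0.33 with that trend removed. In F1, 3 were lower at an unadjusted p under 0.05, Atp5b, Atp5c1 and Atp5d, beside 10.2% of all genes. In edgeR and DESeq2 Atp5c1 was the 1 lower of the 15 (8.77% and 9.45% of all genes). After quantile normalization Atp5b and Atp5c1 were lower (10.8% of all genes) and Atp5h higher (10.6%), and with the trend removed Atp5d and Atp5g1 were lower (9.08%) and Atp5h higher (5.45%). Of the 15 subunits this count was 1 without WT replicate 1, Bach2-cKO replicate 1 or Bach2-cKO replicate 2 (9.43%, 5.36% and 5.92% of all genes), and 5, beside 5 that were higher, without Bach2-cKO replicate 3 (14% and 13.1%). Atp5b, the catalytic beta subunit, had counts of 13906, 7462 and 8809 in WT and 3931, 4757 and 8336 in the libraries labelled Bach2-cKO. WT replicate 1 was far above the other WT libraries, and the groups overlapped. The log2 fold change was -0.85 (SE 0.31, limma adjusted p = 0.187), beside -0.52 in edgeR and -0.55 in DESeq2. Atp5c1, the gamma subunit of the rotating stalk, was at 7660, 6906 and 7915 in WT and at 3905, 4491 and 5987 in the other group. These groups were separate, with a log2 fold change of -0.67 (SE 0.21, limma adjusted p = 0.156). Atp5e, the small epsilon subunit of the same stalk, had counts of 5087, 4588 and 5321 in WT and 8659, 8107 and 4045 in the libraries labelled Bach2-cKO. Replicate 3 of that group was below all WT libraries and replicates 1 and 2 above them, and the log2 fold change was 0.40 (SE 0.28, limma adjusted p = 0.417). It was 0.20, 0.25 and 0.75 without Bach2-cKO replicates 1, 2 and 3.

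Atp5g1, Atp5g2 and Atp5g3 encode the same mature c subunit of the rotor ring. Per kilobase of transcript their mean normalized counts in WT were 1054, 4724 and 14231. The order of Atp5g1 and Atp5g2 rests on the transcripts taken, of 4715 and 441 bases, since their mean counts were 4972 and 2083. Atp5g1 was at 5995, 4482 and 4437 in WT and at 3290, 3842 and 3836 in the libraries labelled Bach2-cKO, and these groups were separate. Atp5g3 was at 11467, 8819 and 10198 and at 9422, 9316 and 8478, and its groups overlapped. The log2 fold changes of Atp5g1, Atp5g2 and Atp5g3 were -0.43, -0.15 and -0.16. Without WT replicate 1 those of Atp5g2 and Atp5g3 were -0.078 and -0.066, that of Atp5g2 was -0.076 without Bach2-cKO replicate 3, and that of Atp5g3 was -0.26 without WT replicate 2. After quantile normalization they were -0.23, -0.017 and -0.022. In edgeR Atp5g2 and Atp5g3 were at -0.082 and -0.074, and in DESeq2 Atp5g3 was at -0.0986. The direction of Atp5g3 turned once the trend in length and GC was removed. Atp5k-ps2, named as a pseudogene, had counts of 6.06, 10.1 and 3.12 in WT and 16.3, 16.8 and 11.2 in the libraries labelled Bach2-cKO. Its groups were separate, at low values. The 4 entries named as pseudogenes, Atp5k-ps2, Atp5l-ps1, Atp5l-ps2 and Atp5l2-ps, had log2 fold changes above 0 in limma, as did Atp5k and Atp5l, and the sign of Atp5l-ps1 turned without Bach2-cKO replicate 1 or 2. Reads may be shared between such copies, so these values are uncertain.

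The 9 assembly factors, which build complexes without staying in them, had log2 fold changes with a median of -0.40. At an unadjusted p under 0.05, 2 of them were lower, beside 10.2% of all genes, against 0 without Bach2-cKO replicate 1 (5.36%). The count was 1 without WT replicate 1 (9.43% of all genes), in edgeR (8.77%) and in DESeq2 (9.45%). With the trend in length and GC removed 0 were lower (9.08%), and the median was -0.22. Ndufaf1 was at 666, 400 and 524 in WT and at 208, 276 and 380 in the libraries labelled Bach2-cKO. Ndufaf7, a methyltransferase, was at 695, 449 and 409 and at 143, 286 and 410. The groups were separate for Ndufaf1 and overlapped at replicate 3 for Ndufaf7, and the log2 fold changes were -0.89 (SE 0.30, limma adjusted p = 0.169) and -0.97 (SE 0.39, limma adjusted p = 0.206). That of Ndufaf7 was -0.55 without Bach2-cKO replicate 1, -0.61 in edgeR and -0.64 in DESeq2.

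Length was not used to choose the genes. Across 89 protein-coding members, Spearman's rho between log2 fold change and coding length was -0.63, a description across genes that share the same libraries and are not independent. Over 10147 other genes it was 0.33. It was below 0 for 76 mitochondrial ribosomal proteins (-0.39), 31 cytosolic ribosomal proteins (-0.42), 37 proteasome subunits (-0.23) and 42 further assembly factors (-0.19). It was above 0 for 18 genes of the TCA cycle (0.49), 20 regulators of mitochondrial DNA expression and biogenesis (0.62), 13 genes of ubiquinone synthesis (0.26), 11 carriers and the ATPase inhibitor (0.18), 16 proliferation genes (0.46) and 10 Tfh markers (0.78). Within the members it was -0.62 over 36 complex I subunits, -0.75 over 9 of complex III and -0.72 over 15 of complex V, against 0.075 over 15 of complex IV. It was -0.48 over 61 accessory and 0.058 over 19 core subunits. By coding length it was -0.44, -0.32 and 0.47 over 45 short, 23 middle and 12 long subunits, in the classes given next. Classes of coding length were set after the values were seen. The median log2 fold change was 0.16 over 45 subunits with under 450 coding bases, -0.19 over 23 from 450 to under 900 bases, and -0.58 over 12 with 900 bases or more. Without Bach2-cKO replicate 3 these medians were 0.35, -0.29 and -0.93. Without Bach2-cKO replicate 1 the first and last were 0.064 and -0.40, without replicate 2 they were 0.083 and -0.43, and without WT replicate 3 they were 0.25 and -0.68. Leaving out WT replicate 2 gave a middle median of -0.29. After quantile normalization the short and middle medians were 0.30 and -0.063. In edgeR the middle and long medians were -0.098 and -0.34, and in DESeq2 all 3 were 0.11, -0.12 and -0.36. In each library, the median deviation of the longest class from the mean of each gene was 0.66, 0.08 and 0.09 in WT and -0.70, -0.55 and 0.15 in the libraries labelled Bach2-cKO. For the shortest class it was -0.13, -0.15 and 0.07, and 0.27, 0.23 and -0.22. Replicate 3 of the labelled Bach2-cKO group thus had the signs of WT replicates 1 and 2 in both classes.

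Other genes also varied with transcript length. Between 1200 and 1600 bases, the median log2 fold change was -0.39 over 12 members and -0.37 over 931 other genes. At up to 500 bases the medians were 0.28 for 11 members and 0.25 for 49 other genes. Between 1600 and 2000 bases they were -0.60 for 9 members and -0.25 for 1036 others, and above 3000 bases -0.43 for 5 members and 0.38 for 4748 others. The medians of the coding length classes were 0.33, -0.046 and -0.46 once each library's trend was removed. The log2 fold changes of single genes moved as well. With that trend removed they were -0.76 for Uqcrc2, -0.66 for Ndufa9, -0.52 for Sdhd, -0.33 for Atp5c1, -0.46 for Ndufaf1 and -0.59 for Ndufaf7, each closer to 0 by over 1.5 times. Those of Atp5g1 and Atp5g2 moved away from 0, to -0.82 and -0.25. So did those of Sdhc (to -0.94), Atp5d (-0.74), Ndufa2 (0.80), Uqcrh (0.70) and Cox6c (0.75), among other members. Cyc1 and Uqcrc1 moved little, from -1.03 to -0.93 and from -0.82 to -0.81.

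**Figure D2:**
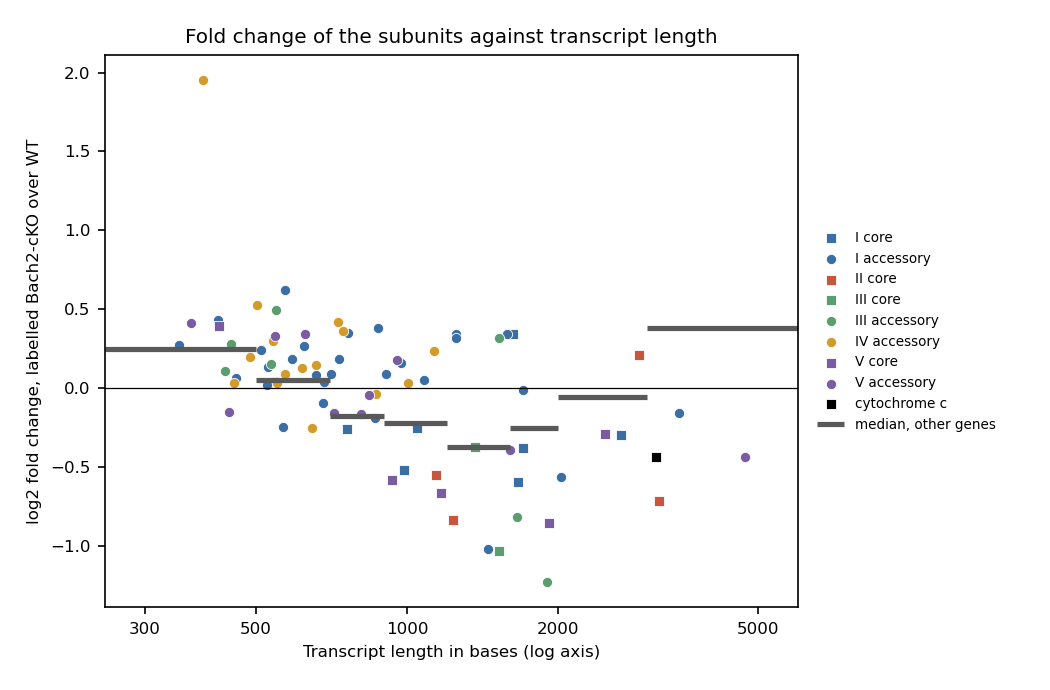
Log2 fold change of 80 subunits against the length of their transcript, colored by complex, with squares for core and circles for accessory subunits. Gray lines are medians of the other genes in the same range of length, such as -0.37 between 1200 and 1600 bases.

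**Figure D3:**
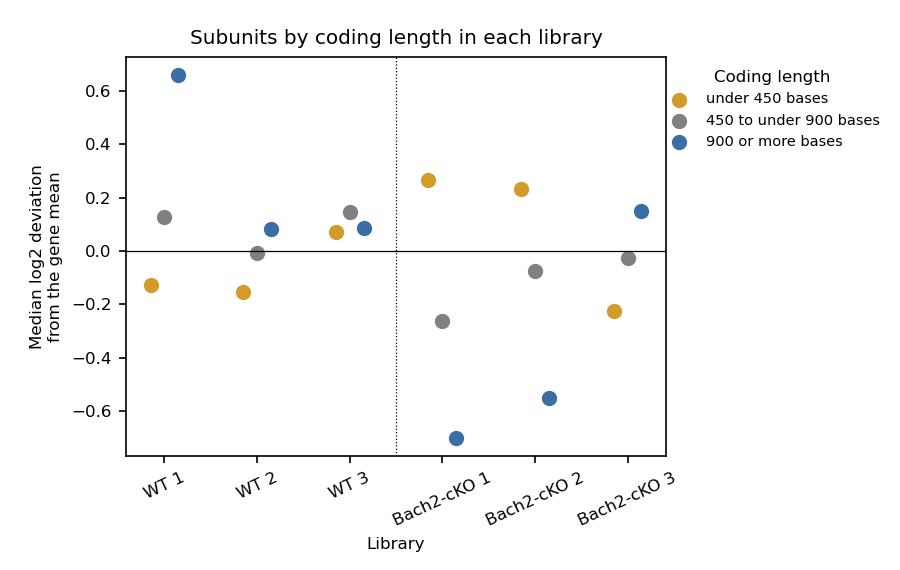
Median log2 deviation from the mean of each gene in each library, for subunits in 3 classes of coding length. The longest class lies at -0.70 and -0.55 in Bach2-cKO replicates 1 and 2 and at 0.15 in replicate 3.

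Left out one at a time, the libraries did not weigh equally. Without Bach2-cKO replicate 3, 4 members were higher, Ndufa2, Cox6c, Atp5e and Atp5k, and 7 lower at an adjusted p under 0.05 in limma, beside 1.61% and 2.88% of all genes. The log2 fold change of Uqcrc2 was then -1.59, at a limma adjusted p of 0.0308, and that of Ndufa9 was -1.27, at 0.0368. No member reached an adjusted p under 0.05 when any other library was left out, nor in DESeq2 on 5 libraries, where 3.26% of genes did and the smallest adjusted p of a member was 0.0538. Ndufv1, Ndufs8, Sdha, Atp5l-ps1, Atp5d, Atp5e, Atp5h, Atp5k, Atp5l, Uqcrq, Uqcrb, Uqcrc1 and Cox7b were chosen for description after their values were seen.

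Genes that work beside the chain were counted in the same fit at an unadjusted p under 0.05, which 10.1% of all genes passed as higher and 10.2% as lower. Of 18 genes of the TCA cycle, 1 was higher and 9 lower, with a median log2 fold change of -0.42. Idh3g, a subunit of isocitrate dehydrogenase, was at 3073, 2649 and 2699 in WT and at 1119, 1146 and 1939 in the libraries labelled Bach2-cKO, with no overlap. Of 11 carriers and the ATPase inhibitor, 0 were higher and 2 lower, among them Slc25a5, the ADP/ATP carrier, at 15454, 11837 and 13051 and at 4491, 5651 and 9803. Of 42 further assembly factors 3 were higher and 4 lower, near the shares of all genes, and Sdhaf2, which helps insert the flavin into Sdha, was at 1383, 1178 and 1614 in WT and at 569, 706 and 904 in the libraries labelled Bach2-cKO. Of 13 genes of ubiquinone synthesis, 0 were higher and 2 lower, and of 20 regulators of mitochondrial DNA expression and biogenesis, 2 were higher and 0 lower, and the 2 in each list lie near those shares. Lists chosen by symbol after the data were seen gave 0 higher and 16 lower of 76 mitochondrial ribosomal proteins, 2 and 0 of 32 cytosolic ribosomal proteins, and 0 and 13 of 37 proteasome subunits, with medians of -0.29, 0.40 and -0.42.

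These counts also depended on single libraries, as did the shares of all genes. Without Bach2-cKO replicates 1, 2 and 3, those shares were 4.14%, 4.74% and 13.1% higher and 5.36%, 5.92% and 14% lower. Without WT replicates 1, 2 and 3 they were 9.79%, 12.1% and 9.68% higher and 9.43%, 10.2% and 7% lower. Without Bach2-cKO replicate 3, 26 cytosolic ribosomal proteins were higher, and 24 proteasome subunits, 29 mitochondrial ribosomal proteins, 7 further assembly factors, 4 carriers and 3 ubiquinone genes were lower, and 2 mitochondrial ribosomal proteins and 1 carrier higher. Without Bach2-cKO replicate 1, 8 proteasome subunits, 6 mitochondrial ribosomal proteins, 4 TCA cycle genes and 1 further assembly factor were lower, and 0 cytosolic ribosomal proteins or further assembly factors higher. The medians of TCA cycle genes and cytosolic ribosomal proteins were then -0.25 and 0.23, against -0.70 and 0.67 without replicate 3. Without Bach2-cKO replicate 2, 8 mitochondrial ribosomal proteins and 1 further assembly factor were lower and 0 cytosolic ribosomal proteins or further assembly factors higher. Cytosolic ribosomal proteins had 1 higher without WT replicate 1 and 0 without WT replicate 2 or 3, further assembly factors 1 lower without WT replicate 1, and carriers 4 lower without WT replicate 2. Without WT replicate 1, 1 proteasome subunit was also higher. For ubiquinone synthesis, 1 was lower without Bach2-cKO replicate 1 or 2 or WT replicate 3. For regulators, 1 was higher without Bach2-cKO replicate 1 or 2 or WT replicate 2, 1 was lower without Bach2-cKO replicate 2, and 2 were lower without WT replicate 1 or 3. For the TCA cycle, 0 were higher without Bach2-cKO replicate 1 or 2 or WT replicate 2 or 3. The counts of these lists also moved with the scaling, and in edgeR and DESeq2, which lacked WT replicate 1. Of all genes, 10.6% were higher and 10.8% lower after quantile normalization, 9.55% and 8.77% in edgeR, and 9.66% and 9.45% in DESeq2. With the trend in length and GC removed, 7 further assembly factors were higher and 1 lower (16.7% and 2.38%, beside 5.45% and 9.08% of all genes), while edgeR and DESeq2 gave 2 and 1. Proteasome subunits then had 6 lower and a median of -0.19, and their median was -0.26 after quantile normalization. Of the cytosolic ribosomal proteins, 14 were higher after quantile normalization, 9 with the trend removed, 9 in DESeq2 and 5 in edgeR. Mitochondrial ribosomal proteins had 2 higher with the trend removed and 10 lower in edgeR. In edgeR 5 TCA cycle genes were lower, and 0 were higher in edgeR, DESeq2 or with the trend removed. With the trend removed 1 carrier, 1 ubiquinone gene and 0 regulators were called, edgeR and DESeq2 gave 1 ubiquinone gene and 2 regulators lower. These differences from the members were not tested.

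Markers of other cells also differed between libraries. The summed counts of 6 B cell markers were 11060, 14075 and 9701 in WT and 3429, 8628 and 3527 in the libraries labelled Bach2-cKO, with Cd74, which activated T cells can also express, as the most abundant. The sum of 4 plasma cell markers was 1905, 30116 and 8338 in WT and 3114, 1404 and 1503 in the other group, led by Jchain. Of those tested, 2 of 5 B cell and 1 of 3 plasma cell markers were lower at an unadjusted p under 0.05, beside 10.2% of all genes. These were 4 B cell markers without WT replicate 1 and 0 plasma cell markers without Bach2-cKO replicate 1 or 2 or WT replicate 3. Of 10 Tfh markers, 3 were higher and 2 lower (10.1% and 10.2% of all genes). Of the 10, 1 was higher without Bach2-cKO replicate 1 (4.14%) or WT replicate 2 (12.1%), and 4 were lower without WT replicate 1 (9.43%). All marker counts use this limit, and the shares of all genes in each fit are those given above. DESeq2 gave 2 Tfh markers higher and 5 lower, edgeR gave 2 and 4, and both gave 4 B cell markers lower, as did limma without WT replicate 1. After quantile normalization 0 plasma cell markers were lower, and with the trend in length and GC removed 1 Tfh marker was higher, 1 lower and 0 plasma cell markers were lower. Cd3e, a chain of the T cell receptor complex, was at 10623, 9648 and 11924 in WT and at 4534, 5238 and 6140 in the libraries labelled Bach2-cKO, and Icos, a costimulatory receptor, was at 2547, 4079 and 4953 and at 1675, 1440 and 2511. Both were lower with no overlap, while Cd4 was higher with no overlap. Tox2, with Cd3e and Icos among the 3 Tfh markers of smallest p, was also higher. Over the 10 Tfh markers, the groups did not overlap for 3 that were higher and 2 that were lower, beside 14.6% and 12.2% of all genes. Their log2 fold changes ranged from -1.03 to 1.10. Foxp3, which marks regulatory T cells and was the 1 of 4 such markers that was lower, was at 222, 315 and 344 in WT and at 47.3, 140 and 91.0 in the other group. The sort did not use Foxp3, so it did not exclude follicular regulatory T cells, which are CXCR5+PD-1+Foxp3+. By flow cytometry, the study reports a smaller share of these among CXCR5+PD-1+ cells of its Bach2-deficient mice. Their share in each library was not tested. Of 16 proliferation genes 1 was higher and 5 lower, against 0 lower without Bach2-cKO replicate 1 or 2, 1 without WT replicate 1, 9 without WT replicate 2, 0 in edgeR and 1 in DESeq2. Of 5 tested myeloid markers and 5 of CD8 T or NK cells, 1 each was lower, and 1 naive T cell marker was higher and 1 lower of 5, counts that ranged from 0 to 3 with 1 library left out. Both edgeR and DESeq2 gave 3 lower of CD8 T or NK cells and 2 of regulatory T cells. The sum of 5 nuclear retained or long noncoding RNAs was 19700, 33819 and 28963 in WT and 58700, 48275 and 38857 in the libraries labelled Bach2-cKO, led by Malat1. Their part in the results for the members was not tested, and fewer cells of a type and less RNA per cell cannot be told apart.

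Promoters are shown because the nuclear subunits are known targets of the factors NRF1 and GABPA, an ETS protein. RefSeq sequences of GRCm38.p6 were found for 75 of 93 members, 3 of them by an older symbol, with 81 promoters, and the 250 bases before each start were searched on both strands. Members without one included Ndufs1, Ndufa2, Ndufb9, Ndufaf6, Sdhc, Cyc1, Uqcrc2, Uqcrb, Uqcrq, Cox4i1, Cox4i2, Cox6c, Atp5a1 and the 4 pseudogenes. The NRF1 core CGCANGCG was in 29.6% of the members' promoters and in 6.76% of all 32851 promoters. The ETS core CCGGAAG was in 16% and 6.91%, AAGATGGC, a YY1 motif, in 2.47% and 1.56%, and TGAGTCA, shared by AP-1 and Bach factors, in 6.17% and 4.46%. A match is a description of letters and no sign of binding. For 4 of the genes described, the 250 bases are given 5′ to 3′ with matched letters in capitals, chosen after their values were seen. Sdhd and Cycs hold the NRF1 core, Sdhd and Uqcrh the ETS core, and Ndufa9 and Uqcrh the AP-1 and Bach core.
Sdhd (chr9:50603850-50604099, minus strand): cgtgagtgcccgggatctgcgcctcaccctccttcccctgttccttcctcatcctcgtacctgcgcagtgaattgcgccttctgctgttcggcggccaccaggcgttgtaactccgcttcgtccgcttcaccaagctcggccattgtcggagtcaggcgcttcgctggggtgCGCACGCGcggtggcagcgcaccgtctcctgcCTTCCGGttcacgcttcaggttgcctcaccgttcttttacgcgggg
Cycs (chr6:50566570-50566819, minus strand): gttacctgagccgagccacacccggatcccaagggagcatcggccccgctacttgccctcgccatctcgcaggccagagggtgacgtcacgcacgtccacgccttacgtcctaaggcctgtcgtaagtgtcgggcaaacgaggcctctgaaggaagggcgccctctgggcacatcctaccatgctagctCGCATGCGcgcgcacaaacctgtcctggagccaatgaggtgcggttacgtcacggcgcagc
Ndufa9 (chr6:126849145-126849394, minus strand): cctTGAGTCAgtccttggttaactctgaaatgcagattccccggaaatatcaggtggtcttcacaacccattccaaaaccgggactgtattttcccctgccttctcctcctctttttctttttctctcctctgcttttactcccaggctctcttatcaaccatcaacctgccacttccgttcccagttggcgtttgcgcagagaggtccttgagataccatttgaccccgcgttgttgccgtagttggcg
Uqcrh (chr4:116075071-116075320, minus strand): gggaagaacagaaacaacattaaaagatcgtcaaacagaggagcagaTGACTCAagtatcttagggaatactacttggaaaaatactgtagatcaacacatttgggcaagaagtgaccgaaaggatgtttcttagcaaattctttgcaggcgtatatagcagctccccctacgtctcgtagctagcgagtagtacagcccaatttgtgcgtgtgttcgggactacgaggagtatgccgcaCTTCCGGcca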

How the data were processed

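Tfh cells were sorted by flow cytometry, cDNA was amplified with the SMARTer Ultra Low kit and libraries were made with a TruSeq kit. Per the study's methods, the authors aligned reads with Tophat2, counted genes with HTSeq and used DESeq2, while the submitters' processing notes list STAR 2.5.2b, DESeq, DESeq2 1.20.0, R 3.5.1 and GRCm38/mm10 with no role. The annotation was not given in the sources used here. The deposited values are a signal, gene counts divided by a size factor per library. All values were whole multiples of a step (100% within 0.01), and whole reads were taken back from 5 libraries. WT replicate 1, with a step of 1.01, was not converted, although its values were also whole multiples of the step. Bach2-cKO replicate 3, with a step of 1.02, was converted. Testing was on log2(value + 1), for genes that reached 10 in 3 or more libraries, with limma 3.58.1 (trended variance, R 4.3.3), with Benjamini-Hochberg adjustment over all genes tested. Alternatives were edgeR 4.0.16 and DESeq2 1.42.0 on the 5 libraries, other pseudocounts (0.5 and 5), filters (none, or a mean of at least 50), TMM rescaling, quantile normalization, no variance trend, a replicate block, removal of a spline trend (6 degrees of freedom) in transcript length and GC content, and leaving out each library. Fits were tested on simulated data. Lengths came from GENCODE M21 and promoters from RefSeq. The named genes were Bach2, the 2 subunits of highest mean in each complex, the 10 members with the smallest p, the 5 largest increases and decreases, and paralog families. Members and lists were chosen with earlier results of these data known. The study states 3 replicates per group, and a figure caption that also covers flow cytometry gives at least 3 mice per group. Neither ties each library to a separate animal, so p-values measure the spread between these libraries. Classes of coding length and ranges of transcript length, comparison lists and the roles of members were chosen after values were seen. Exons of some members overlap other genes, and the counting was not stated to use strand. Some items are not reported here.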

Additional observations from a re-analysis of the deposited data

How the results depend on the processing

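Of 30 named genes, 26 had 1 direction in every one of 17 alternatives that gave them a value, and of all 93 members 69 did. Cox4i2, Cox6b2, Cox7a1 and Atp5k-ps2 had no value with a mean of at least 50. The named exceptions were Cox8a (-0.0215 in DESeq2, -0.12 with length and GC trends removed, and -0.0458 to 0.19 with 1 library left out), Atp5g3 (0.0691 with that trend removed), Cox4i2 (-0.0244 after quantile normalization, and -0.0586 to 1.23 with 1 library left out) and Cox7a1 (-0.0233 in DESeq2). Genes past the study's thresholds numbered 33 higher and 57 lower in DESeq2 on 5 libraries and 0 in the other alternatives, leaving out each library included. Members with an unadjusted p under 0.05 were 11 higher after quantile normalization (10.6% of all genes) and 13 with the trend removed (5.45%). Without the variance trend 5 were lower, or 5.38%, beside 7.83% of all genes. On 5 libraries 7 were lower in edgeR (8.77% of all genes) and in DESeq2 (9.45%). With 1 library left out, such members ranged from 0 to 22 higher and from 3 to 19 lower. The shares of all genes then ranged from 4.14% to 13.1% and from 5.36% to 14%. The median of the members was 0.16 after quantile normalization and -0.01 to 0.13 with 1 library left out. Same-numbered libraries did not deviate together (correlations of -0.069, 0.116 and -0.039). The fit with a replicate block gave 1 member higher and 10 lower, or 1.08% and 10.8%, beside 9% and 9.15% of all genes. It gave a member median of 0.04 and 0 genes past the thresholds. The cause of these differences was not tested.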
